A study of Homo sapiens with 35 samples.

Results

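The genes described here are linked to cell tension, and there are 9: CYR61 (listed as CCN1 in the bulk table), ANKRD1, AMOTL2, TAGLN, CAV1, ACTC1, ACTA2, WWTR1 and YAP1. They are 9 of the 16103 genes of the bulk table and were picked by name, after measurements of these samples had been seen. The contrasts that led to the choice are not recorded, so every adjusted p below describes a fit and is not independent evidence about the genes.

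The study differentiated H1, a human embryonic stem cell line, towards definitive endoderm, the embryonic layer that gives rise to gut organs, in flat culture. It held 35 samples: 32 bulk RNA samples in 16 groups of 2, of which 30 libraries in 15 groups were analysed (the untreated pair of 24 h was not used here), and 3 single-cell libraries. At 6 h and 24 h the unsorted cells had Activin A with CHIR99021 (AA+CHIR), BRD with CHIR, JNJ with CHIR, CHIR alone or BRD alone, and at 6 h also no treatment. At 72 h the cells were sorted definitive endoderm. The BRD arm had BRD with CHIR on day 1 and BRD on the following days, and the JNJ arm was built the same way with JNJ. The BRD+LoAA arm had BRD and LoAA with CHIR on day 1, and BRD with LoAA on the following days. LoAA is a label that the sources do not spell out. The Activin A arm had Activin A with CHIR on day 1 and then Activin A. Activin A was given at 100 ng/ml and CHIR99021, an inhibitor of the kinase GSK3, at 3 µM on day 1. BRD and JNJ are code names, with doses not given in the sources used here. All cells are of 1 line, and the labels only number the 2 libraries of a group. They may be technical repeats, and each p-value measures the spread between these libraries alone. In bulk RNA, fewer cells of a type and less RNA per cell cannot be told apart.

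YAP1 and TAZ (the product of WWTR1) are co-activators that enter the nucleus when cells are spread or under tension, and they act through TEAD transcription factors. The kinases of the Hippo pathway hold them in the cytoplasm. CYR61, ANKRD1 and AMOTL2 are among their best known targets. CYR61 encodes a secreted matrix protein, ANKRD1 a repeat protein of muscle nuclei and sarcomeres, and AMOTL2 an angiomotin that binds YAP1 and restrains it. TAGLN, ACTC1 and ACTA2 encode transgelin and the cardiac and smooth muscle actins, which respond to serum response factor (SRF) and its actin-sensing partners. CAV1 encodes caveolin, the coat protein of caveolae, the membrane pits that flatten under stretch.

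On GRCh38 the genes lie on 6 chromosomes. CYR61 is on the plus strand of chromosome 1 at 85580761 to 85583962, WWTR1 on the minus strand of chromosome 3 at 149517235 to 149736714 and AMOTL2 on the minus strand of chromosome 3 at 134355874 to 134375479. CAV1 is on the plus strand of chromosome 7 at 116524785 to 116561184. ANKRD1 and ACTA2 are both on the minus strand of chromosome 10, at 90912096 to 90921276 and at 88935074 to 88991339. TAGLN and YAP1 are both on the plus strand of chromosome 11, at 117199321 to 117204782 and at 102110461 to 102233423, and ACTC1 is on the minus strand of chromosome 15 at 34788095 to 34795726. Several share exonic bases with other genes: TAGLN 446 with PCSK7, ACTA2 516 with ACTA2-AS1 and 380 with FAS, ACTC1 367, WWTR1 795 and YAP1 628 with an antisense transcript each, and AMOTL2 187 with the pseudogene RPL39P5 on its own strand. Whether the counting used strand is not given in the sources used here, so part of these counts may belong to the partner. The actins are close paralogs, and reads may be split among them.

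The promoters were searched for the TEAD motif CATTCC on both strands and for the CArG box bound by SRF, in the 250 bases before each start in the RefSeq table of GRCh38.p14. Of 35116 promoters, 11.9% held CATTCC and 1.16% a CArG box. The ANKRD1 promoter held CATTCC 2 times, with first bases 220 and 128 bases before the start. That of CCN2 (connective tissue growth factor, a further YAP target whose values are used below) held it 3 times, 169, 104 and 95 bases before the start. The second promoter of AMOTL2 held it once, 69 bases before the start, the YAP1 promoter once at 162, the second promoter of ACTA2 once at 183, and the third of ACTC1 once at 174. The first ACTC1 promoter held a CArG box, 109 bases before the start. None of the listed promoters of WWTR1 or CAV1 held either motif, and CYR61 and TAGLN are named only. A match is a description of letters, not a measured binding site. Of the stretches with a match, 4 are shown as examples, 5′ to 3′ on the gene's strand, and the others, that of YAP1 among them, are not. Capitals mark the matches (GGAATG is CATTCC on the other strand).
ANKRD1, chr10:90921088-90921337, minus strand: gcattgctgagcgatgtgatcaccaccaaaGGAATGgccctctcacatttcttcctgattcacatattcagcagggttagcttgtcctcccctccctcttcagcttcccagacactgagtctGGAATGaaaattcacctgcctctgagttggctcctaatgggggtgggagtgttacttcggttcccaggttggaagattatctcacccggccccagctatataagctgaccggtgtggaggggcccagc
CCN2, chr6:131951373-131951622, minus strand: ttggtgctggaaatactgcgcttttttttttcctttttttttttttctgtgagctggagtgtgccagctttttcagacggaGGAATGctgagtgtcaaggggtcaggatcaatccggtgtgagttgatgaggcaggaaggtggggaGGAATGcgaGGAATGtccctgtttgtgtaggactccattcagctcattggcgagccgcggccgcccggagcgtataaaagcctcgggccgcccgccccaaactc
AMOTL2, chr3:134374448-134374697, minus strand: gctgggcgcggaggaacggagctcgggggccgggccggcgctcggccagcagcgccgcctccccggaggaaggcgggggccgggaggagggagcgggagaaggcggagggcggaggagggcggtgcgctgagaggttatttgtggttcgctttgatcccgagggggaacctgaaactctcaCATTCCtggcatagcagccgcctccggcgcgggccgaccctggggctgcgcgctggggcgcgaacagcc
ACTC1, chr15:34795550-34795799, minus strand: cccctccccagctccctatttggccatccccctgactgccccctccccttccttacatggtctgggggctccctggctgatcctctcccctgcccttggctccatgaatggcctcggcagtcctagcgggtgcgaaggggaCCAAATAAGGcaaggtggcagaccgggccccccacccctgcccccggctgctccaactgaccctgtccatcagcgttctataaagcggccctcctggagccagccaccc

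Bulk libraries held 4572437 to 49503884 expected counts, and levels are CPM, counts scaled to a library total of 1000000, with edgeR's TMM factors over all 30 libraries. The library codes in the sample titles begin with 33 (6 h), 38 (24 h) or 46 (72 h, and BRD alone at 6 h and 24 h). Comparisons within 6 h and within 72 h therefore stay inside 1 code series, except those with BRD alone. Comparisons across times cross series, except BRD alone. The 24 h libraries of series 38 were the least even: between 112 and 298 genes were at 0 in 1 library of a group and at 50 counts or more in the other, against 9 to 19 at 72 h and in series 33. The edgeR common biological coefficient of variation was 0.14 at 6 h, 0.406 at 24 h and 0.165 at 72 h. MTRNR2L12, a mitochondrial-like transcript, took 53600 to 115000 CPM in series 46 and at most 7060 CPM elsewhere.

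The 9 genes did not share 1 course over the 15 groups. CYR61 ranged between 3.08 and 108 CPM over the libraries, with the 6 h AA+CHIR group highest and the 24 h AA+CHIR group lowest. Neighbouring groups in its order overlapped in 7 of 14 pairs, and the break was the step from the 6 h BRD group (46.3 and 46.6 CPM) down to the 24 h CHIR group (11.9 and 5.33 CPM). ANKRD1 ranged from 0 to 79.6 CPM, with all libraries over 1 CPM at 72 h. AMOTL2 lay between 34.3 and 229 CPM, highest in the 72 h Activin A arm and lowest in BRD alone at 6 h. Its neighbours overlapped in 11 of 14 pairs. TAGLN ran from 55.6 to 414 CPM, and its 6 highest groups were the 6 groups of 6 h. YAP1 ran from 142 to 419 CPM, with the 3 compound arms of 72 h on top and the untreated 6 h group at the bottom. WWTR1 stayed within 16.7 to 54.4 CPM, and 13 of its 14 neighbouring pairs overlapped. CAV1 ranged from 0.872 to 16.8 CPM, ACTC1 from 10.2 to 81.4 CPM and ACTA2 from 0 to 4.06 CPM, where all 14 neighbouring pairs overlapped. ACTA2 held 3 to 38 counts a library at 6 h, 15 to 114 at 24 h and at most 6 at 72 h, where it did not pass the filter of comparisons between the 72 h arms.

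**Figure D1:**
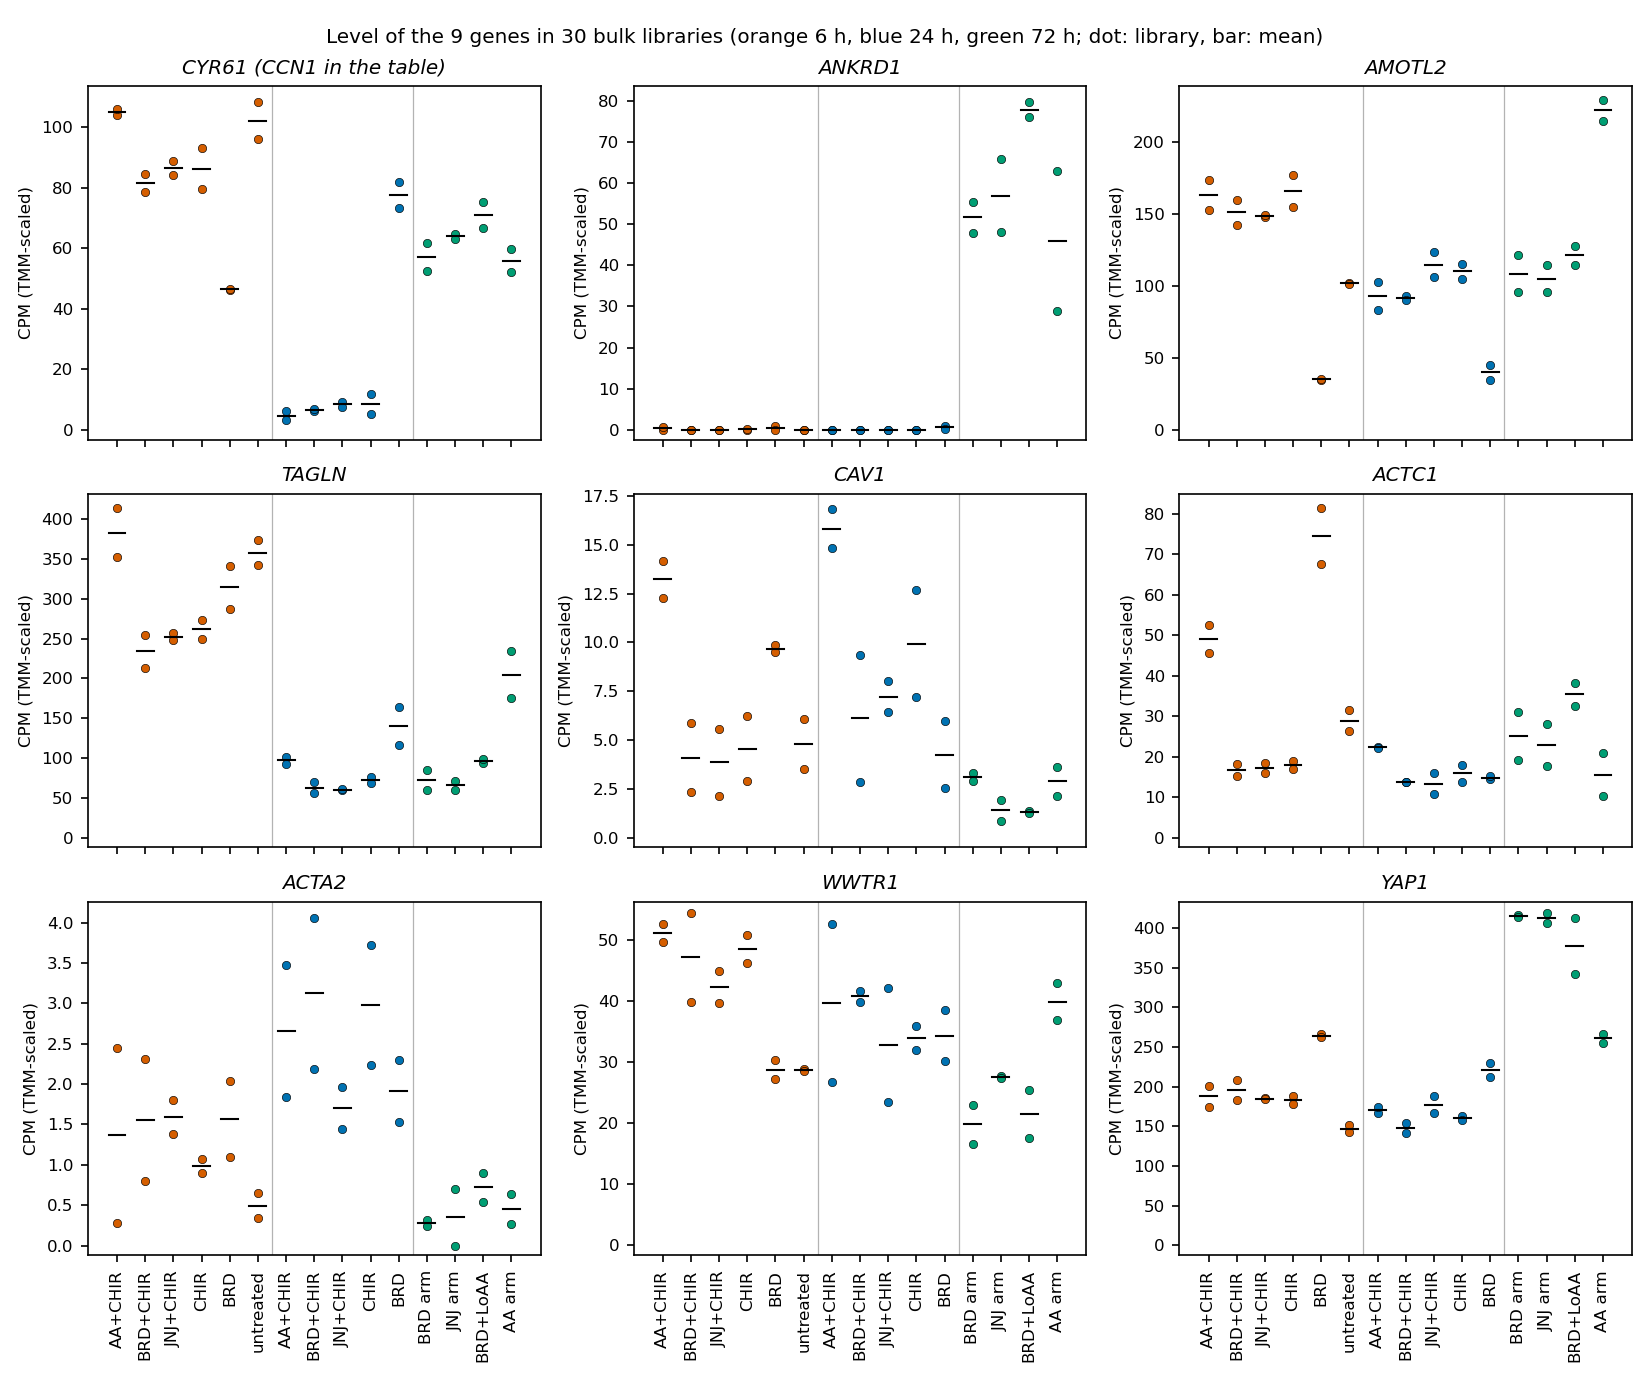
Level of each of the 9 genes in CPM (vertical axes, starting near 0) in the 30 bulk libraries (dots) with group means (short lines), by group; orange marks 6 h, blue 24 h and green 72 h. CYR61 sits between 3.08 and 11.9 CPM in the 8 libraries of series 38 at 24 h, and ANKRD1 exceeds 1 CPM in the 72 h libraries only, where it lies between 28.8 and 79.6 CPM.

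At 72 h the question was how endoderm made with a compound differs from endoderm made with Activin A. Each of the 3 compound arms was set against the same 2 Activin A libraries, so agreement among the arms is not independent. In sorted endoderm of the compound arms, TAGLN and AMOTL2 were lower than in the Activin A arm, YAP1 was higher, WWTR1 was lower in 2 of the 3 arms, and CYR61 and ANKRD1 showed no called difference. Of 8 genes tested (ACTA2 did not pass the filter on low counts), edgeR called 4 in the BRD arm, 3 in the JNJ arm and 5 in the BRD+LoAA arm at a false discovery rate of 0.05. Over all 13889 genes tested, 21.3% were called in the BRD arm, 18.5% in the JNJ arm and 19.4% in the BRD+LoAA arm. The members' median log2 difference was 0.05 in the BRD arm, -0.19 in the JNJ arm and -0.26 in the BRD+LoAA arm, beside 0.01, 0.01 and 0.02 for all genes.

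AMOTL2 had 95.7 and 121 CPM in the BRD arm, 95.8 and 114 CPM in the JNJ arm and 128 and 114.5 CPM in the BRD+LoAA arm, against 229 and 215 CPM in the Activin A arm. Each compound library lay below both Activin A libraries, which adds no support to the calls from the same libraries. The log2 difference from the Activin A arm was -1.04 ± 0.14 (SE, n = 2 libraries each) in the BRD arm (adjusted p = 0.000205), -1.09 ± 0.14 in the JNJ arm (adjusted p = 0.000164) and -0.87 ± 0.14 in the BRD+LoAA arm (adjusted p = 0.000907). TAGLN, an actin-bundling protein of smooth muscle and spread cells, had 59.3 and 85.2 CPM in the BRD arm, 60.0 and 71.7 CPM in the JNJ arm and 94.1 and 99.0 CPM in the BRD+LoAA arm, against 235 and 175 CPM in the Activin A arm. It showed the largest called fall among the members, by 1.51 ± 0.18 in the BRD arm (adjusted p = 7.14e-05), 1.65 ± 0.18 in the JNJ arm (4.23e-05) and 1.09 ± 0.18 in the BRD+LoAA arm (0.000961) on the log2 scale. Both genes stayed called in each of the 3 arms whichever library was left out.

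The 2 co-activators moved in opposite directions in the BRD and BRD+LoAA arms. YAP1 had 417 and 414 CPM in the BRD arm, 406 and 419 CPM in the JNJ arm and 412 and 342 CPM in the BRD+LoAA arm, against 256 and 267 CPM in the Activin A arm. It was higher by 0.66 ± 0.13 (BRD arm, adjusted p = 0.00238), 0.65 ± 0.13 (JNJ arm, 0.00307) and 0.53 ± 0.13 (BRD+LoAA arm, 0.0106) on the log2 scale. WWTR1 had 23.0 and 16.7 CPM in the BRD arm, 27.8 and 27.5 CPM in the JNJ arm and 25.4 and 17.6 CPM in the BRD+LoAA arm, against 43.1 and 36.9 CPM in the Activin A arm. No compound library reached an Activin A library, which likewise adds no support to the calls. The log2 difference was -1.03 ± 0.22 in the BRD arm (adjusted p = 0.00547), -0.89 ± 0.23 in the BRD+LoAA arm (0.0147) and -0.55 ± 0.22 in the JNJ arm, which was not called (0.108). Without Activin A replicate 1 the WWTR1 call ended in the BRD arm (adjusted p = 0.0734) and in the BRD+LoAA arm (0.137), and the YAP1 call ended in the BRD+LoAA arm (0.0851). Without BRD+LoAA replicate 1 the YAP1 call of that arm ended (0.107), and without its replicate 2 the WWTR1 call ended (0.136).

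The remaining targets and actins did not follow. CYR61 had 52.5 and 61.7 CPM in the BRD arm, 64.7 and 63.1 CPM in the JNJ arm and 66.7 and 75.4 CPM in the BRD+LoAA arm, against 59.7 and 52.0 CPM in the Activin A arm. Its log2 differences were 0.02 (95% interval -0.30 to 0.34), 0.18 (-0.14 to 0.50) and 0.34 (0.02 to 0.66, adjusted p = 0.129). ANKRD1 had 48.0 and 55.4 CPM in the BRD arm, 48.0 and 65.9 CPM in the JNJ arm and 76.1 and 79.6 CPM in the BRD+LoAA arm, against 62.8 and 28.8 CPM in the Activin A arm, whose 2 libraries stood far apart. The differences were 0.14 ± 0.27, 0.28 ± 0.27 and 0.74 ± 0.27 (adjusted p = 0.0712 in the BRD+LoAA arm), none called. ACTC1, the main actin of heart muscle, had 19.2 and 30.9 CPM in the BRD arm, 17.6 and 28.0 CPM in the JNJ arm and 32.6 and 38.2 CPM in the BRD+LoAA arm, against 20.8 and 10.2 CPM in the Activin A arm. It was called higher in the BRD+LoAA arm alone, by 1.15 ± 0.32 (adjusted p = 0.0253), and that call ended without Activin A replicate 2 (0.175) or without either BRD+LoAA library (0.0601 and 0.119). In the BRD and JNJ arms the differences were 0.65 (-0.06 to 1.36) and 0.51 (-0.20 to 1.23). CAV1 was at or below 3.63 CPM in all 8 libraries and was not called.

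**Figure D2:**
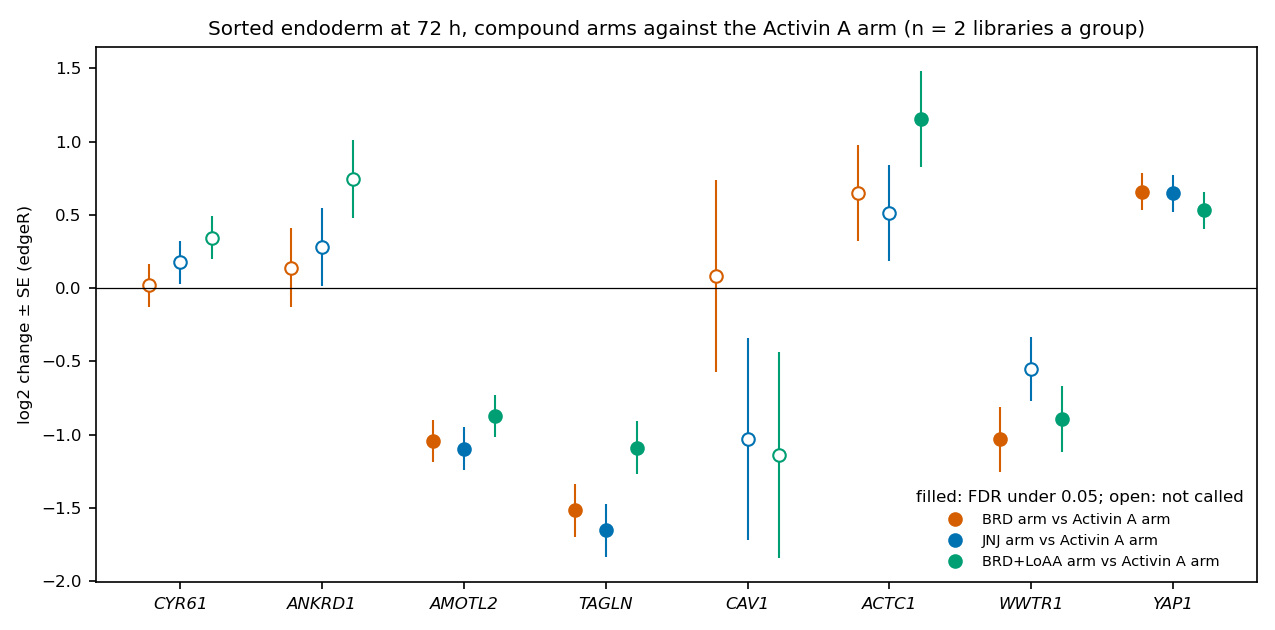
Log2 difference with its SE (vertical axis) of 8 of the genes at 72 h for the BRD, JNJ and BRD+LoAA arms, each against the Activin A arm; filled points are called at a false discovery rate of 0.05, open points are not. AMOTL2 and TAGLN are filled below 0 and YAP1 is filled above 0 in the 3 arms, while CYR61 and ANKRD1 are open. The 3 differences share the 2 Activin A libraries.

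Other contractile genes were lower in the compound arms as well. Of 30 listed, 29 were tested, and 18 fell and 1 rose in the BRD arm, 20 fell and 1 rose in the JNJ arm, and 17 fell and 1 rose in the BRD+LoAA arm. The median log2 difference was -0.79, -0.89 and -0.76, beside 0.01, 0.01 and 0.02 for all genes tested. Of all genes tested, 21.3%, 18.5% and 19.4% were called in the BRD, JNJ and BRD+LoAA arms, both directions together. Shares by direction were not computed, here or for the lists that follow at 72 h. The largest fall named is that of MYOCD, myocardin, the SRF partner that drives smooth muscle and heart genes. It had 2.85 and 5.84 CPM in the BRD arm, 3.25 and 4.53 CPM in the JNJ arm and 4.54 and 4.81 CPM in the BRD+LoAA arm, against 48.8 and 56.2 CPM in the Activin A arm. The log2 differences were -3.58 ± 0.31 (adjusted p = 5.17e-06), -3.78 ± 0.32 (4.57e-06) and -3.48 ± 0.32 (7.36e-06). VCL, vinculin of focal adhesions, averaged 254.5, 245.5 and 280.3 CPM in the BRD, JNJ and BRD+LoAA arms, against 773 CPM, with log2 differences of -1.62 ± 0.16, -1.67 ± 0.16 and -1.46 ± 0.15. ACTB, the main cytoplasmic actin, averaged 2880, 2936 and 3141 CPM in those arms, against 6357 CPM, with differences of -1.16 ± 0.13, -1.13 ± 0.13 and -1.02 ± 0.13. The myosin light chain MYL6 fell by 1.28 ± 0.13 in the BRD arm, and the small GTPase RHOB fell by 1.59 ± 0.17 in the JNJ arm and by 1.33 ± 0.17 in the BRD+LoAA arm. TAGLN fell beside these genes in each arm, and ACTC1 did not. Among the actin paralogs, ACTG2 had 1.48 to 5.06 CPM over the 8 libraries and ACTA1 had 6.10 to 26.5 CPM, highest in Activin A replicate 1.

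Further YAP and TEAD targets had no common direction. Of 20 tested, 3 rose and 6 fell in the BRD arm, and 3 rose and 5 fell in the JNJ and in the BRD+LoAA arm, with medians of -0.04, -0.11 and -0.11. IGFBP3, which binds insulin-like growth factors, averaged 27.1, 32.7 and 34.5 CPM in the BRD, JNJ and BRD+LoAA arms, against 1.95 CPM in the Activin A arm, and rose by 3.68 ± 0.34, 3.94 ± 0.34 and 4.03 ± 0.34. The membrane repair protein MYOF rose by 2.63 ± 0.24, 2.54 ± 0.25 and 2.39 ± 0.25, and the guanine exchange factor DOCK5 rose by 1.93 ± 0.20, 1.89 ± 0.20 and 2.08 ± 0.20. Among those that fell, DLC1 averaged 190, 185.3 and 177 CPM, against 424 CPM, and fell by 1.17 ± 0.15, 1.21 ± 0.15 and 1.26 ± 0.15. The 22 listed targets summed to 1058 to 1182 CPM in the compound arms, against 1568 to 1637 CPM in the Activin A arm. Much of this gap lies in DLC1 and in the phosphatase PTPN14. PTPN14 had 220 to 289 CPM in the compound arms, against 421 and 423 CPM in the Activin A arm. CCN2 lay between 44.0 and 59.2 CPM in all 4 arms.

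Hippo pathway parts were mixed too: of 26 tested, 3 rose and 7 fell in the BRD arm, 2 rose and 7 fell in the JNJ arm, and 4 rose and 5 fell in the BRD+LoAA arm. AMOT, the founding angiomotin, moved against its relative AMOTL2, with 53.0 and 72.3 CPM in the BRD arm, 55.9 and 74.1 CPM in the JNJ arm and 54.0 and 57.1 CPM in the BRD+LoAA arm, against 8.34 and 13.4 CPM in the Activin A arm (log2 2.55 ± 0.25, 2.60 ± 0.25 and 2.39 ± 0.25). TEAD1, a DNA-binding partner of YAP1, averaged 107, 103 and 105 CPM in the BRD, JNJ and BRD+LoAA arms, against 207 CPM, and fell by 0.96 ± 0.13, 1.02 ± 0.13 and 0.98 ± 0.13. Of 5 caveola genes tested, CAVIN1 rose (log2 2.04 ± 0.53, 2.39 ± 0.52 and 2.36 ± 0.53) while CAVIN3 and PACSIN2 fell in each arm. CAVIN1 averaged only 5.63, 7.18 and 6.95 CPM in those arms, against 1.26 CPM.

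**Figure D3:**
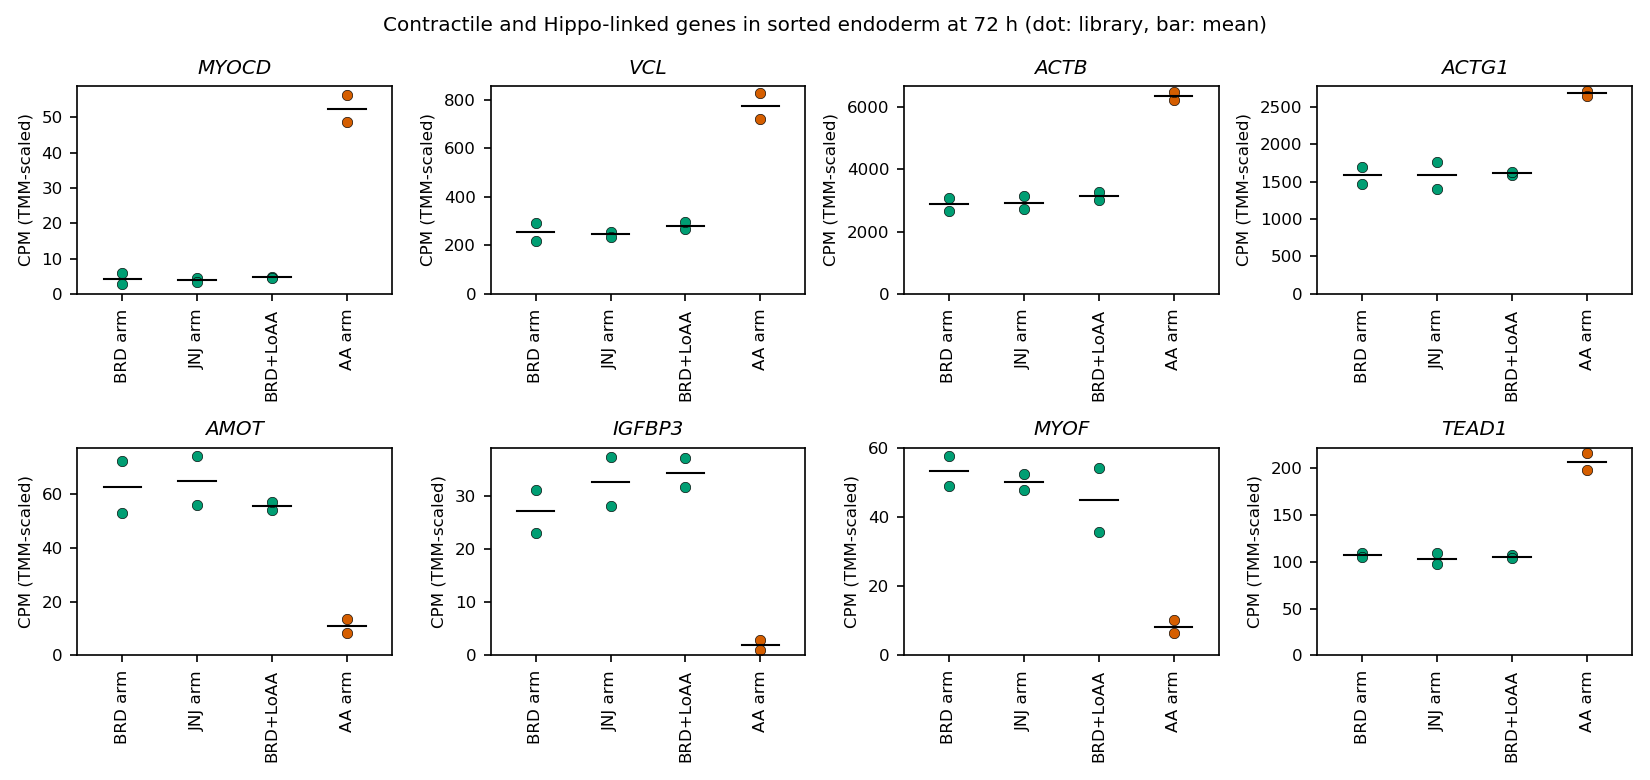
Level in CPM (vertical axes from 0) of MYOCD, VCL, ACTB, ACTG1, AMOT, IGFBP3, MYOF and TEAD1 in the 8 libraries of sorted endoderm at 72 h (dots, with group means as short lines). MYOCD, VCL, ACTB, ACTG1 and TEAD1 are lower in the compound arms than in the Activin A arm, and AMOT, IGFBP3 and MYOF are higher, with no overlap of libraries. Most of these genes were picked for a small p, so the lack of overlap adds no support.

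The arms also differed in markers of cell types. The summed level of 7 of 7 endoderm markers was 672 to 835 CPM in the compound arms, against 4812 to 5409 CPM in the Activin A arm, mostly through CER1, which averaged 70.5 CPM in the BRD, 97.6 CPM in the JNJ and 67.8 CPM in the BRD+LoAA arm, against 4059 CPM in the Activin A arm. SOX17, a defining endoderm factor, was present in all arms, with 219 to 257.5 CPM in the compound arms, against 385 and 398 CPM in the Activin A arm. Primitive streak markers (5 of 5) summed to 260 to 353 CPM, against 638 to 641 CPM. EOMES made up most of the sum, at 202 to 230 CPM on average, against 413 CPM, and GSC and MIXL1 were lower too. TBXT went the other way, at 7.84 to 11.6 CPM, against 2.61 CPM, and FGF8 was at 5.49 to 9.16 CPM, against 7.77 CPM. Fibroblast markers (4 of 5 in the table) summed to 163 to 252 CPM, against 89.6 to 102 CPM, a difference made by COL1A1 (104 to 153 CPM on average, against 61.1 CPM) and COL1A2 (50.8 to 70.4 CPM, against 25.04 CPM). PDGFRB averaged 7.11 to 8.08 CPM, against 9.65 CPM, and DCN was under 1 CPM on average in every arm. Amnion and trophoblast markers (5 of 5) summed to 133 to 177 CPM, against 5.24 to 10.0 CPM, with GATA3 making up most of the sum and CDX2 at 0 in every compound library. Smooth muscle markers (5 of 5) summed to 13.5 to 24.6 CPM, against 67.6 to 74.1 CPM, where MYOCD makes up most of the sum. Pluripotency markers (5 of 5) summed to 1863 to 2242 CPM in the 4 arms, with LIN28A making up most of the sum (1637 to 1727 CPM on average). POU5F1 averaged 117 to 149 CPM in the compound arms, against 57.9 CPM in the Activin A arm. SOX2 averaged 18.2 to 24.7 CPM, against 1.47 CPM, and NANOG 17.8 to 21.2 CPM, against 12.6 CPM. DPPA4 went the other way, at 154 to 157 CPM, against 173 CPM. Endothelial markers (4 of 4) summed to 10.96 to 20.2 CPM, against 32.0 to 37.3 CPM, mesoderm markers (4 of 6) to 17.7 to 29.9 CPM, against 24.1 to 31.1 CPM, and cardiac muscle markers (2 of 5) to at most 3.58 CPM. The part of these shifts in the differences of TAGLN, AMOTL2, WWTR1 and YAP1 was not tested.

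The compound arms were then set against each other. Between the BRD and JNJ arms at 72 h, edgeR called 0 of 8 members and 0 of 13889 genes (0%), no member had an unadjusted p below 0.05, and DESeq2 called 0 members. The intervals of the difference were narrow for some members: 0.05 (-0.26 to 0.36) for AMOTL2, 0.01 (-0.26 to 0.28) for YAP1, -0.16 (-0.48 to 0.16) for CYR61 and 0.14 (-0.26 to 0.54) for TAGLN on the log2 scale. They were wide for WWTR1 (-0.48, from -0.97 to 0.0098), ACTC1 (0.14, from -0.55 to 0.82) and CAV1 (1.11, from -0.37 to 2.59), so larger differences of these genes could not be detected. Between the BRD+LoAA and BRD arms, 0 of 8 members and 0% of genes were called by edgeR, and DESeq2 called 0 members. There CYR61 (0.33, 0.01 to 0.64), ANKRD1 (0.60, 0.03 to 1.17) and TAGLN (0.43, 0.03 to 0.82) had unadjusted p-values below 0.05 and an adjusted p of 0.916 each.

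At 6 h the first comparison set CHIR alone against untreated cells. CHIR raised AMOTL2 and WWTR1 and lowered TAGLN and ACTC1, 4 of 8 members tested (ANKRD1 did not pass the filter), where 2.96% of 14874 genes were called, 1.69% higher and 1.28% lower. The members' median log2 difference was 0.11, beside -0.00 for all genes. AMOTL2 had 155 and 177 CPM with CHIR, against 102 and 101 CPM in untreated cells, a log2 difference of 0.70 ± 0.10 (adjusted p = 0.000225). WWTR1 had 46.3 and 50.9 CPM with CHIR, against 28.99 and 28.6 CPM without (0.75 ± 0.15, adjusted p = 0.00737). TAGLN had 250.03 and 273 CPM, against 374 and 342 CPM (-0.46 ± 0.11, adjusted p = 0.0199), and ACTC1 had 18.9 and 17.0 CPM, against 26.3 and 31.4 CPM (-0.69 ± 0.16, adjusted p = 0.024). In each of these the libraries of the groups did not overlap. That adds no support to the calls, since both come from the same libraries. YAP1 had 179 and 188 CPM, against 152 and 142 CPM (0.31 ± 0.09, adjusted p = 0.0895), and CYR61 had 79.5 and 93.1 CPM, against 95.9 and 108 CPM (-0.25 ± 0.10, adjusted p = 0.285). Neither was called. AMOTL2 stayed called whichever of the 4 libraries was left out, and the other calls did not. TAGLN was lost without either CHIR library or untreated replicate 1 (adjusted p between 0.0693 and 0.228), ACTC1 without either CHIR library or untreated replicate 2 (0.0971 to 0.238), and WWTR1 without CHIR replicate 2 or either untreated library (0.0586 to 0.108).

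Around the members, 8 of 30 contractile genes fell with CHIR and none rose, with a median of -0.21. VCL fell by 0.54 ± 0.07, the actin and tropomyosin binder CALD1 by 0.56 ± 0.08, the skeletal actin ACTA1 by 0.92 ± 0.14 and the tropomyosin TPM1 by 0.48 ± 0.08. Of 21 other TEAD targets, only PTPN14, a phosphatase that binds YAP1, was called, at 270.4 CPM with CHIR against 190.5 CPM (0.50 ± 0.09). It also stands in the Hippo list, where FAT1 (0.34 ± 0.08) and TAOK3 (0.72 ± 0.17) rose besides and none of 26 fell. None of 5 caveola genes was called. Smooth muscle markers summed to 41.1 to 43.2 CPM with CHIR, against 65.2 to 72.9 CPM in untreated cells.

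Adding Activin A to CHIR raised ACTC1 and TAGLN at 6 h. This comparison shares its 2 CHIR libraries with that of CHIR against untreated cells, with the opposite sign, so the directions of both are not independent. Of the members, 2 of 8 rose and none fell, where 1.49% of genes were called and 0.76% rose. ACTC1 had 52.5 and 45.6 CPM with AA+CHIR, against 18.9 and 17.0 CPM with CHIR, a rise of 1.45 ± 0.16 on the log2 scale (adjusted p = 5.18e-05) that kept its call whichever library was left out. TAGLN had 414 and 353 CPM, against 250.03 and 273 CPM (0.55 ± 0.11, adjusted p = 0.00999). Untreated cells had 374 and 342 CPM of TAGLN and 26.3 and 31.4 CPM of ACTC1. The TAGLN call ended without AA+CHIR replicate 1 (adjusted p = 0.169) or without either CHIR library (0.176 and 0.0516). CAV1 had 14.2 and 12.3 CPM, against 2.89 and 6.21 CPM, and was not called (1.54 ± 0.48, adjusted p = 0.167). The targets and co-activators were close between the groups: the difference was -0.02 (-0.22 to 0.18) for AMOTL2, 0.28 (0.06 to 0.50, adjusted p = 0.281) for CYR61, 0.07 (-0.23 to 0.38) for WWTR1 and 0.04 (-0.16 to 0.23) for YAP1. Of 30 contractile genes, 4 rose and none fell: CALD1 (0.62 ± 0.08), the calponin CNN1 (0.75 ± 0.14), RHOB (0.92 ± 0.20) and TAGLN2 (0.58 ± 0.14). No listed TEAD target, Hippo part or caveola gene was called. Smooth muscle markers, a list that holds CNN1, summed to 68.4 to 69.8 CPM with AA+CHIR, against 41.1 to 43.2 CPM with CHIR.

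**Figure D4:**
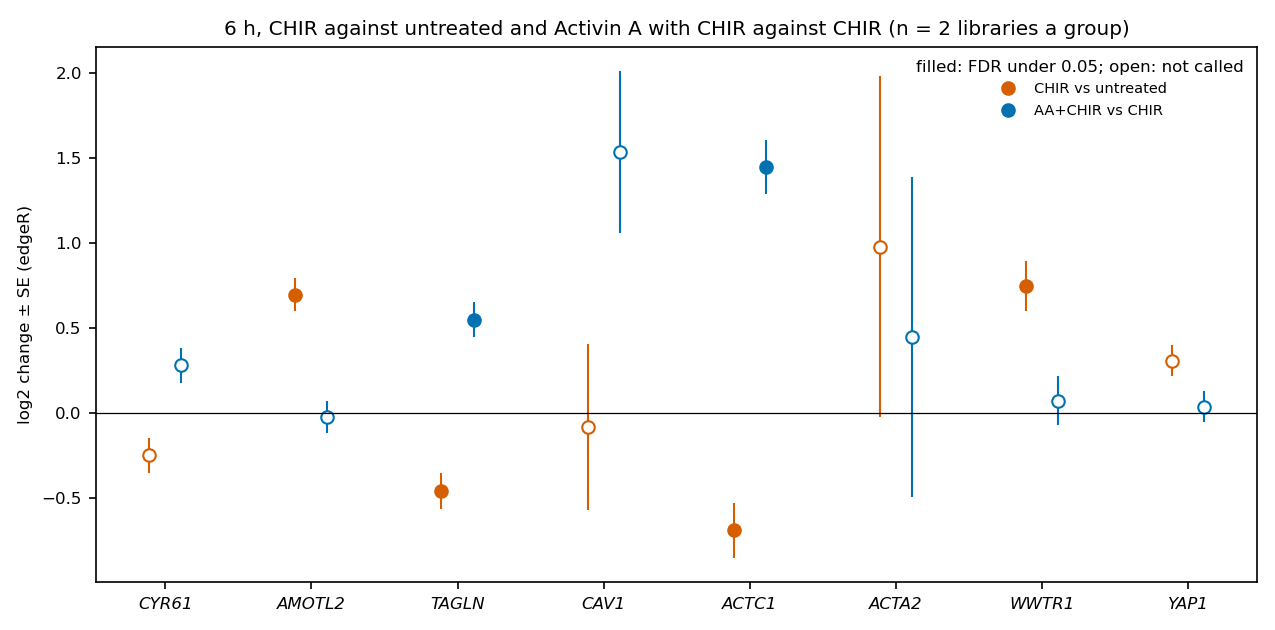
Log2 difference with its SE (vertical axis) of 8 of the genes at 6 h, for CHIR against untreated cells and for AA+CHIR against CHIR, which share the 2 CHIR libraries; filled points are called at a false discovery rate of 0.05. TAGLN and ACTC1 are filled below 0 for CHIR and filled above 0 for AA+CHIR, while AMOTL2 and WWTR1 are filled above 0 for CHIR and open near 0 for AA+CHIR.

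The compounds added little to CHIR that could be detected. At 6 h, edgeR called 0 of 8 members for BRD+CHIR against CHIR, where 0% of genes were called, and 0 of 8 for JNJ+CHIR against CHIR, where 0.0202% were called. At 24 h it called 0 of 8 in each, where 0% and 0.154% of genes were called. In these 4 comparisons no member had an unadjusted p below 0.05, and DESeq2 called 0 members. With BRD+CHIR against CHIR at 6 h the difference was -0.13 (-0.32 to 0.07) for AMOTL2, -0.15 (-0.37 to 0.07) for TAGLN, -0.09 (-0.43 to 0.26) for ACTC1, -0.07 (-0.29 to 0.14) for CYR61 and 0.10 (-0.09 to 0.29) for YAP1. With JNJ+CHIR it was -0.15 (-0.35 to 0.05), -0.04 (-0.26 to 0.18), -0.06 (-0.41 to 0.29), 0.01 (-0.21 to 0.23) and 0.02 (-0.17 to 0.21) for the same genes. At 24 h the intervals of BRD+CHIR against CHIR were wider, as for CYR61 (-0.40, from -1.18 to 0.38). Between BRD+CHIR and JNJ+CHIR, 0 of 8 members were called at either time, where 0.0202% (6 h) and 0.18% (24 h) of genes were called. Unadjusted p-values fell below 0.05 for 0 members at 6 h and for 1 at 24 h, YAP1 (-0.26, from -0.51 to -0.02), and DESeq2 called 0.

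At 24 h AA+CHIR against CHIR gave no member call in edgeR (0 of 8, where 2.86% of genes were called) or in DESeq2, and 2 members had an unadjusted p below 0.05. The fit over all 30 libraries called 1 member, CYR61. CYR61 had 3.08 and 6.17 CPM with AA+CHIR, against 11.9 and 5.33 CPM with CHIR (-0.90 ± 0.37, adjusted p = 0.282). TAGLN had 102 and 92.3 CPM, against 75.9 and 68.2 CPM (0.43 ± 0.17, adjusted p = 0.26). The libraries of CYR61 overlapped and those of TAGLN did not. CAV1 had 14.8 and 16.8 CPM with AA+CHIR, against 12.7 and 7.18 CPM with CHIR (0.67, from -0.49 to 1.83). Among 22 TEAD targets DLC1 rose by 3.49 ± 0.34, at 89.8 CPM against 8.02 CPM, and GADD45A by 1.25 ± 0.28. The protocadherin FAT4 fell by 1.72 ± 0.30 among 26 Hippo parts, and TPM1 (0.47 ± 0.11) and RHOB (1.22 ± 0.31) fell among 30 contractile genes. None of 5 caveola genes was called. The test of whether the Activin A effect differed between 24 h and 6 h called 0 of 9 members, where 1.9% of genes were called. There, 2 members had an unadjusted p below 0.05, ACTC1 (-0.96 ± 0.29, adjusted p = 0.106) and CYR61 (-1.19 ± 0.37, adjusted p = 0.118), and DESeq2 called CYR61. The like tests for BRD+CHIR and for JNJ+CHIR against CHIR called 0 of 9 members in edgeR, where 0.00636% of genes were called in each, with 0 members at an unadjusted p below 0.05 and 0 in DESeq2. For the Activin A effect, CYR61 was also called by edgeR without 24 h AA+CHIR replicate 2 or without 24 h CHIR replicate 2.

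BRD without CHIR came from series 46, so its differences from the series 33 and 38 libraries cannot be told apart from the series. Against untreated cells at 6 h, 4 of 8 members were called, where 54.1% of all genes were. ACTC1 had 67.6 and 81.4 CPM with BRD, against 26.3 and 31.4 CPM in untreated cells (1.41 ± 0.16), and YAP1 had 266 and 263 CPM, against 152 and 142 CPM (0.89 ± 0.09). AMOTL2 had 34.8 and 35.2 CPM, against 102 and 101 CPM (-1.50 ± 0.11), and CYR61 had 46.3 and 46.6 CPM, against 95.9 and 108 CPM (-1.09 ± 0.11). Against BRD alone, BRD+CHIR called 7 of 8 members at 6 h, where 53.9% of genes were called, and 4 of 8 at 24 h, where 35.5% were called. AMOTL2 was higher with BRD+CHIR at both times, with 160 and 142 CPM against 34.8 and 35.2 CPM at 6 h (2.07 ± 0.10) and 93.0 and 90.2 CPM against 34.3 and 45.2 CPM at 24 h (1.18 ± 0.16). With shares this high over all genes, nothing is read from the members' counts.

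BRD alone gave the only change over time within 1 series. Its 24 h libraries were unlike in depth, with 6748319 and 49503884 expected counts. In that pair 40 genes were at 0 in 1 library and at 50 counts or more in the other, against 10 at 6 h. The 24 h libraries of BRD alone, set against its 6 h libraries, called 2 of 9 members, both lower. Over all genes 12.9% were called and 9.01% were lower. ACTC1 had 14.4 and 15.2 CPM at 24 h, against 67.6 and 81.4 CPM at 6 h (-2.35 ± 0.21, adjusted p = 1.72e-07). TAGLN had 164 and 117 CPM, against 288 and 341 CPM (-1.20 ± 0.14, adjusted p = 4.94e-06). CYR61 had 73.3 and 82.0 CPM at 24 h, against 46.3 and 46.6 CPM at 6 h (0.72 ± 0.25, adjusted p = 0.0607), and DESeq2 called it higher and YAP1 lower besides. Of 30 contractile genes, 14 fell and 1 rose, with a median of -0.45 beside 0.01 for all genes, among them CALD1 (-1.71 ± 0.09), VCL (-1.65 ± 0.09), ACTB (-0.69 ± 0.06) and ACTA1 (-2.002 ± 0.19). Of 22 TEAD targets, 6 rose and 2 fell, with CCN2 higher by 1.10 ± 0.18 and AMOTL1 lower by 1.54 ± 0.10.

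In the 4 arms with CHIR, the 24 h libraries differed from the 6 h libraries in both time and series, which cannot be told apart. The members called were 3 of 9 in CHIR, 4 in AA+CHIR, 4 in BRD+CHIR and 3 in JNJ+CHIR, all lower at 24 h, where 37.9%, 42.2%, 37.4% and 41.1% of genes were called and 19.3%, 21.4%, 19.2% and 21.6% were lower. CYR61 fell by 3.30 ± 0.27 in CHIR, 4.49 ± 0.29 in AA+CHIR, 3.63 ± 0.28 in BRD+CHIR and 3.37 ± 0.27 in JNJ+CHIR on the log2 scale. Its 8 libraries of 24 h in series 38 held 3.08 to 11.9 CPM, against 78.6 to 108 CPM in the 10 libraries of series 33. CCN2 held 4.99 to 12.2 CPM in series 38 at 24 h, against 113 to 162 CPM in series 33 at 6 h. The BRD-alone pair of 24 h, from series 46, did not share the low levels, with 73.3 and 82.0 CPM of CYR61 and 105.5 and 118 CPM of CCN2. That pair also had no CHIR, which all 8 libraries of series 38 had. Series and treatment therefore cannot be told apart between them, for these genes or for those named next. Without centring within times, the 3 genes most like CYR61 over the 15 group means were RPL39, EIF3CL and RPS15A (r = 0.99 each), so that they share its course is fixed by how they were chosen. The ribosomal protein gene RPL39 had 91.4 to 108 CPM in series 38 at 24 h, against 424 to 529 CPM in series 33 and 393 to 447 CPM in BRD alone at 24 h. RPS15A had 260 to 309 CPM in series 38, against 864 to 1230 CPM in series 33, and EIF3CL had 0 to 2.99 CPM, against 503 to 643 CPM.

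TAGLN fell in the same 4 arms by 1.84 ± 0.15 (CHIR), 1.96 ± 0.15 (AA+CHIR), 1.89 ± 0.15 (BRD+CHIR) and 2.07 ± 0.15 (JNJ+CHIR), and it fell in BRD alone too, as given above. AMOTL2 fell by 0.57 ± 0.13, 0.79 ± 0.13, 0.72 ± 0.13 and 0.37 ± 0.13 in those arms. The last call ended without either 6 h JNJ+CHIR library or 24 h JNJ+CHIR replicate 1 (adjusted p between 0.0811 and 0.171). ACTC1 fell in AA+CHIR by 1.11 ± 0.20, with 22.4 and 22.2 CPM at 24 h against 52.5 and 45.6 CPM at 6 h. YAP1 fell in BRD+CHIR by 0.40 ± 0.10, a call that ended without 6 h BRD+CHIR replicate 2 (adjusted p = 0.0656). CAV1 and WWTR1 were not called in any arm.

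Between 24 h and 72 h the cells also passed a sort, so time, sorting and series cannot be told apart. Members called were 6 of 9 in the Activin A arm, 6 in the BRD arm and 4 in the JNJ arm, where 40.9%, 39.6% and 40.1% of genes were called. ANKRD1 was near 0 before 72 h and well counted at 72 h in each arm. It had 0 counts in the 8 libraries of series 38 at 24 h and 0.919 and 0.281 CPM in BRD alone, and pooled over the arm's 2 libraries of 72 h it had 49.6 CPM in the Activin A arm, 52.2 CPM in the BRD arm and 58.2 CPM in the JNJ arm. Set against a floor of 3 counts over the 24 h group, it was at least 899-fold higher in the Activin A arm, 662-fold in the BRD arm and 1060-fold in the JNJ arm. The bound depends on the libraries behind it: it was 521-fold in the Activin A arm without 72 h replicate 1, and with 1 library of 24 h left out it was 432-fold and 467-fold (replicates 1 and 2) in the Activin A arm, 238-fold and 424-fold in the BRD arm and 505-fold and 552-fold in the JNJ arm. At 6 h it was at or below 0.822 CPM in every library, so its low level there does not rest on series 38. CYR61 was higher at 72 h by 3.61 ± 0.32 (Activin A), 3.11 ± 0.32 (BRD) and 2.93 ± 0.31 (JNJ), set against the low series 38 values above. In the Activin A arm AMOTL2 rose by 1.26 ± 0.16 and TAGLN by 1.09 ± 0.19. In the BRD and JNJ arms AMOTL2 differed by 0.23 (-0.10 to 0.57) and -0.13 (-0.46 to 0.21), and TAGLN by 0.19 (-0.21 to 0.60) and 0.13 (-0.28 to 0.53), none called.

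YAP1 was higher at 72 h in all 3 arms, by 0.62 ± 0.12 (Activin A), 1.48 ± 0.12 (BRD) and 1.22 ± 0.12 (JNJ). WWTR1 was lower in the BRD arm, by 1.06 ± 0.31 (adjusted p = 0.00956), a call that ended without 72 h BRD replicate 2 (0.108). CAV1 had 3.63 and 2.13 CPM at 72 h, against 14.8 and 16.8 CPM at 24 h in the Activin A arm (-2.42 ± 0.62, adjusted p = 0.00399), and 0.872 and 1.95 CPM, against 6.43 and 8.03 CPM in the JNJ arm (-2.32 ± 0.65, adjusted p = 0.00745). The call ended without 72 h Activin A replicate 2 (adjusted p = 0.0542) in the first arm and without 72 h JNJ replicate 1 (0.091) in the second. In the BRD arm ACTC1 was higher by 0.85 ± 0.32 (adjusted p = 0.0439) and ACTA2 lower by 3.47 ± 1.25 (0.0336), both lost on leaving out 1 of several libraries (ACTC1 without 72 h BRD replicate 2 or either 24 h library, 0.125 to 0.422, and ACTA2 without either 72 h BRD library or 24 h BRD+CHIR replicate 1, 0.118 to 0.16).

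The genes most like each member were sought over the 15 group means of log2(CPM + 1), centred within each time. The groups share libraries, depth and code series, so a high r describes these groups only. CYR61 was most like EIF3CL (r = 0.99), SFTPB (0.98) and CHRNG (0.97). AMOTL2 was most like the immediate early gene IER2 (0.97), SHMT2 (0.97) and TRAIP (0.96). TAGLN was most like SEMA3E, the integrin-linked kinase ILK and RANGAP1 (each 0.91), and ACTC1 most like CALD1 (0.91), SGTB (0.90) and CIBAR1 (0.90). ANKRD1 was most like C1QBP (0.93), HPGD (0.92) and CEP83 (0.90), CAV1 most like SOWAHC (0.90), FUT8 (0.83) and MYORG (0.83), and ACTA2 most like NBPF15 (0.88), TTL (0.84) and ZNF487 (0.82). YAP1 was most like NCBP2 (0.94), ATM (0.94) and PCDH11X (0.93), and WWTR1 most like APOL6 (0.91), GIPC1 (0.88) and PRKY (0.85).

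The 3 single-cell libraries were labelled as 36 h primitive streak cells and 72 h endoderm (Endo), both under Activin A with CHIR and then Activin A, and 72 h mesoderm (Meso) from a commercial induction medium. They were prepared after sorting with 10x 3′ chemistry. With 1 library a group there is no test, and the intervals cover counting error only. After filtering, 4193 cells of 6244 barcodes remained at 36 h, 4511 of 6321 in Endo and 5632 of 6266 in Meso, with median depths of 21152, 7680 and 7873.5 UMIs. Any pair of libraries shared 50 to 56 barcodes, under 1% of the smaller. The doublet caller marked 0, 0 and 6 cells. Counts this low do not show that doublets are absent, and whether doublets remain was not tested.

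CAV1 had the widest spread over the single-cell libraries that was well counted. Here CPM are UMI sums scaled to 1000000 UMIs of the library or cluster, with no other factor. CAV1 stood at 92.8 CPM at 36 h (95% Poisson interval 90.67 to 94.98), 9.68 in Endo (8.66 to 10.8) and 10.95 in Meso (10.0 to 12.0). ANKRD1 had 89 UMIs in Endo (2.63 CPM, 2.12 to 3.24), against 7 at 36 h and 10 in Meso. AMOTL2 was at 9.40 CPM at 36 h, 26.1 in Endo and 15.8 in Meso, and CYR61 at 7.36 (6.76 to 7.99), 16.0 (14.7 to 17.4) and 5.06 (4.42 to 5.76). TAGLN was at 336, 188 and 290.1 CPM, and ACTC1 at 23.3, 7.99 and 20.8, so both actin-linked genes were lowest in Endo. ACTA2 was at 3.26, 0.414 and 5.26 CPM, highest in Meso. YAP1 lay at 24.0, 23.5 and 24.5 CPM with overlapping intervals, and WWTR1 at 7.87, 11.1 and 9.003. MYOCD had 9.06 CPM in Endo, against 0.0648 at 36 h and 0.0887 in Meso. Levels set across the bulk and single-cell libraries rest on different chemistries and are not compared.

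Cells were grouped within each library by Leiden clustering, with the members and listed genes kept out of the genes used. In Endo, 1 cluster of 526 cells (11.7% of the library, median 3168 UMIs) held most of the CYR61: 363 of 541 UMIs, or 124 CPM (112 to 138), against 5.77 CPM (4.95 to 6.68) in the rest of the library and 4.11 to 11.6 in the other 5 clusters. After thinning each cell to 2000 UMIs, which left out 826 shallower Endo cells, 10.1% of its cells (7.41% to 13.5%, exact binomial) held a CYR61 UMI, against at most 1.66% in the other clusters. The same cluster had 865 CPM of TAGLN, against 123 in the rest, 45.5 of CAV1, against 6.29, and 38.6 of ACTC1, against 5.09. AMOTL2 did not follow, at 18.1 CPM (13.6 to 23.7) against 26.9 in the rest, and YAP1 was at 10.6, against 24.7. The cluster's cells carried 835 CPM of POU5F1, against 213 to 367 in the other clusters, and 11.3 of SOX17, against 80.5 to 148. Endoderm markers summed to 1160 CPM there, against 3580 to 3870, and pluripotency markers to 1240, against 399 to 627. In the Endo library as a whole, CER1 made up most of the endoderm sum, at 2963 CPM. The part of these marker levels in the CYR61 and TAGLN values was not tested. Without these cells the level of CYR61 in Endo was below that of the 36 h library, where the full library was above it.

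ANKRD1 in Endo lay elsewhere: another cluster of 697 cells held 53 of its 89 UMIs, 6.77 CPM, against 0.746 to 3.42 in the other clusters with any. The highest single Endo cell held 11 of the UMIs. At a fixed depth the share of cells with an ANKRD1 UMI was 0.873% (0.321 to 1.89%) in that cluster, against 0.483% (0.0586 to 1.73%) in the next, and the intervals overlap. AMOTL2 was also highest there, at 33.6 CPM, against 5.22 to 28.3 in the others. At 36 h CAV1 lay between 73.3 and 102.5 CPM in the 5 clusters of at least 100 cells. In Meso the 5 clusters of at least 100 cells had 227 to 499 CPM of TAGLN, 3.92 to 12.5 of ACTA2 and 13.6 to 31.2 of ACTC1. The smallest, of 118 cells with a median of 2094 UMIs, was highest in each, from 160 UMIs of TAGLN (425 to 583 CPM), 4 of ACTA2 (3.40 to 31.95) and 10 of ACTC1 (14.96 to 57.4). These are values of cells from 1 library each, and the clusters were not given cell type names.

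**Figure D5:**
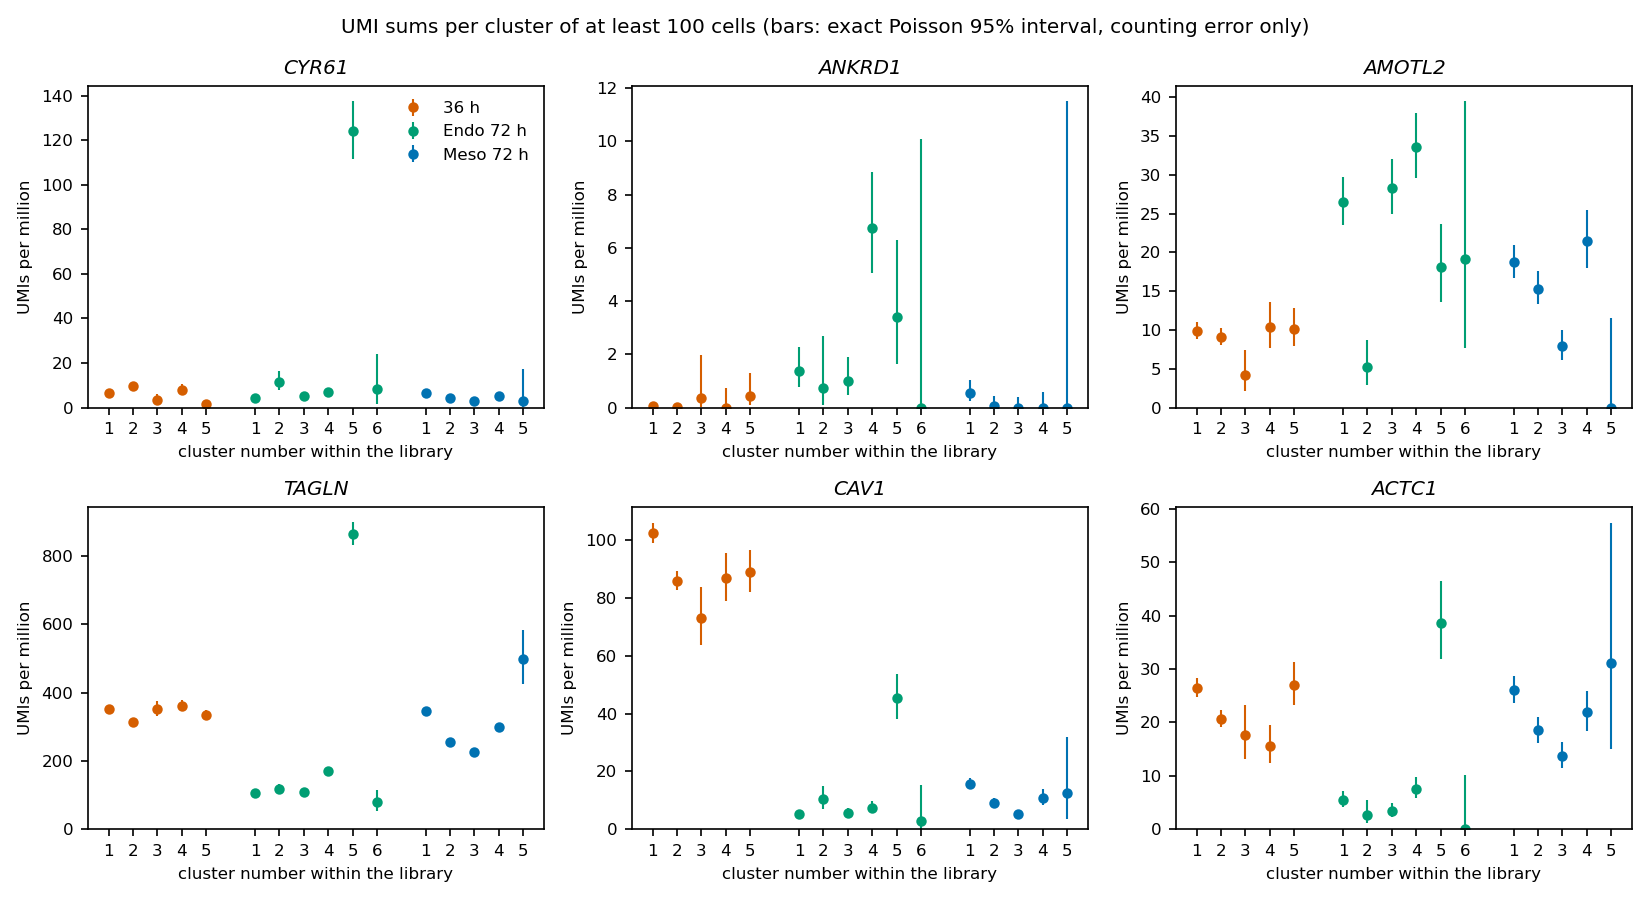
CPM of UMIs (vertical axes, starting at 0) of CYR61, ANKRD1, AMOTL2, TAGLN, CAV1 and ACTC1 in each cluster of at least 100 cells of the 36 h (orange), Endo (green) and Meso (blue) libraries; bars are exact Poisson intervals that cover counting error only. Endo cluster 5 stands at 124 for CYR61 and 865 for TAGLN, cluster 4 is highest for ANKRD1, and the 36 h clusters are highest for CAV1.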

How the data were processed

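Bulk RNA libraries were made with a stranded total RNA kit and read single-end, per the labels' protocols. The authors deposited 1 table of expected counts per gene, estimated by the tools named below and not normalized. Single-cell libraries were deposited as UMI counts per gene and cell. The submitters' processing notes name the build GRCh38 and the tools Salmon 1.4.0, edgeR 3.34.0, limma 3.48.1, Cell Ranger and Seurat 4.0.2, without their settings.

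The expected counts were rounded and fitted with edgeR 4.0.16 (R 4.3.3): filterByExpr, TMM factors, glmQLFit and glmQLFTest, with p-values adjusted by Benjamini-Hochberg over all genes tested and calls at 0.05. Each time was fitted with all its groups, and 6 h with 24 h and 24 h with 72 h for changes over time, 28 comparisons in all. SE is the log2 change divided by the square root of F. All tests are two-sided. Bulk depth was 4572437 to 49503884 counts, and with 2 libraries a group small differences are not detectable.

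Single cells needed 500 genes and at most 10% mitochondrial UMIs. Scanpy 1.11.5 clustered each library (2000 variable genes, 30 components, 15 neighbours, Leiden resolution 0.5). UMI sums as CPM have exact Poisson and shares exact binomial 95% intervals (scipy 1.17.1).

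The members, the gene lists and the tests were chosen with earlier results of these data known. Named are the 9 members, up to 4 called genes with the smallest p per list and comparison, the 3 genes most alike to each member, group markers and actin paralogs. CCN2, AMOT and the genes that differ by library code were named after their values were seen. Alternatives were DESeq2 1.42.0, RLE factors, no filter, 1 fit over all 30 libraries, a replicate block, and each library left out. The replicate numbers come from the titles and do not pair libraries, so the main fits have no block. Fits were tested on simulated counts.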

Additional observations from a re-analysis of the deposited data

How the results depend on the processing

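Of 65 called log2 changes of the members, 65 kept direction and call with DESeq2, with RLE factors and without the filter on low counts, and 60 did so in 1 fit over all 30 libraries. None reversed under any alternative. Leaving out 1 library kept 224 of 260 such values and ended the call in 36, where a lone library is assumed to vary like the others. Some fits with 1 library left out also called members that the main fit did not, as for the JNJ arm against the Activin A arm at 72 h. Without the BRD-alone libraries, chosen after the data were seen, 36 of 36 values were kept.

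Counts of called members that moved by over 1.5 times were these. DESeq2 called 4 members for BRD alone at 24 h against 6 h (2 in edgeR), and 1 for the Activin A effect at 24 h minus that at 6 h (0 in edgeR). The fit over all 30 libraries called 1 for CHIR against untreated at 6 h (4), 1 for AA+CHIR against CHIR at 6 h (2) and 1 for that contrast at 24 h (0). It lost TAGLN, ACTC1 and WWTR1 for CHIR (adjusted p = 0.333, 0.436 and 0.275) and TAGLN for AA+CHIR (0.194). With 1 library left out, the counts ran from 1 to 2 for each of these 6 h contrasts, 3 to 4 for the BRD+LoAA arm against the Activin A arm at 72 h (5), 3 to 5 for the BRD arm at 72 h against 24 h (6), and 0 to 1 for the time difference of the Activin A effect. The cause was not tested.

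The replicate numbers did not pair libraries (correlation of same-numbered deviations between -0.255 and 0.254, over 0.1 in 1 of 31 pairs). With the replicate block, 27 of 28 counts were unchanged, and the BRD arm at 72 h against 24 h had 5 members in place of 6 (ACTC1, 0.85, adjusted p = 0.0512). Single-cell values over all barcodes are close to those of kept cells. ACTA2 and CAV1 at 72 h and ANKRD1 before 72 h are limited by depth.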
